A study of Homo sapiens with 12 samples.

Results

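The genes described here encode the machinery of MHC class I antigen presentation: the heavy chains HLA-B, HLA-C, HLA-E and HLA-F, the light chain B2M, the peptide transporter subunits TAP1 and TAP2, the loading chaperone TAPBP (tapasin) and the transactivator NLRC5. They were taken by name, so no measured value chose them, and all 9 were found once among the 58302 genes of the table. Total RNA was sequenced from 2 established pancreatic ductal adenocarcinoma lines, BxPC-3 and CFPAC-1, both labelled sensitive to the nucleoside analogue gemcitabine (GEM), and from BxPC-3-GR and CFPAC-1-GR, the GEM-resistant lines selected from them by continuous exposure to rising GEM concentrations, with 3 libraries per line and 12 in all. BxPC-3-GR was labelled mesenchymal in morphology and the other lines epithelial. Each resistant line is a single selected population, so resistance and other changes acquired during selection cannot be told apart. The labels name the same medium for all lines, whereas the methods of the study name different media for BxPC-3 and CFPAC-1, and whether GEM was present at harvest is not given in the sources used here. Nothing says that the 3 libraries of a line came from separate cultures, so p-values measure the spread between these libraries, which may be technical.

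In class I presentation, peptides cut by the proteasome are carried into the endoplasmic reticulum by the TAP1-TAP2 transporter, where tapasin holds empty heavy chain and B2M close to the transporter until a peptide is bound. The loaded complex then moves to the surface, where classical heavy chains such as HLA-B and HLA-C show peptides to cytotoxic T cells, and HLA-E is read by NK cell receptors. NLRC5 acts at class I promoters together with RFX, CREB/ATF and NF-Y proteins, and interferons raise most of these genes, in part through IRF1. Loss of class I genes is a known way for tumours, pancreatic cancer included, to avoid T cells.

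Of the members, 7 lie on chromosome 6 in the MHC, whose genes are hard to measure with short reads. In GRCh38 coordinates, as listed in the table, HLA-F lies at chr6:29722775-29738528 on the plus strand, HLA-E at chr6:30489467-30494205 (plus), HLA-C at chr6:31268749-31272130 (minus), HLA-B at chr6:31269491-31357188 (minus), TAP2 at chr6:32821833-32838780 (minus), TAP1 at chr6:32845209-32853978 (minus) and TAPBP at chr6:33299694-33314387 (minus). B2M lies at chr15:44711477-44718877 and NLRC5 at chr16:56989485-57083531, both on the plus strand. All are annotated as protein coding. The HLA-B model used for the table runs over HLA-C for 2640 bases on the same strand, so to which gene the fragments there were assigned is not known and the levels of both are uncertain.

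Promoters of HLA-B, HLA-C and B2M are shown because HLA-B was the member with the widest range between lines, HLA-C is its close relative, and B2M, on another chromosome, varied least between line means among the members above 1 FPKM. They are the bases directly before the annotated start on the gene's own strand, from RefSeq on GRCh38.p14: chr6:31357189-31357429 (minus), chr6:31272131-31272342 (minus) and chr15:44711267-44711476 (plus). Capitals mark matches, on either strand, to GAAA, any 2 bases and GAAA again (the core of an interferon-response element), GGG, any 2 bases, TT, any base and CC (an NF-kB site), CCAAT (the NF-Y box) or TGACG (part of a CREB/ATF site).
HLA-B: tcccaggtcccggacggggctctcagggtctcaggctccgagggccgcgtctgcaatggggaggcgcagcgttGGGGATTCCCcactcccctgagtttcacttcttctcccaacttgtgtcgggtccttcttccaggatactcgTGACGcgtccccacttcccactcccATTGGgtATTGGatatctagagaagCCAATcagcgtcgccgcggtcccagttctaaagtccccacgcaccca
HLA-C: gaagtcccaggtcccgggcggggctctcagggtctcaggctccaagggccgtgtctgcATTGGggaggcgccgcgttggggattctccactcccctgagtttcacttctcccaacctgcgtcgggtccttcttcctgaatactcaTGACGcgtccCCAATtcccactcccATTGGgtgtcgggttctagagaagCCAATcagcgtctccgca
B2M: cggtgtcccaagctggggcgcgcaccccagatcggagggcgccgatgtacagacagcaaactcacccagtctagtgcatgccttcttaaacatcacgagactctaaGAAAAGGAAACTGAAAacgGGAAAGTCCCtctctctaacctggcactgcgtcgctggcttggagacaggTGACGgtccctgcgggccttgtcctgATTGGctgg

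RefSeq promoters were found for 7 of the 9 genes. In the 250 bases before the start, the HLA-B promoter held 1 match to the NF-kB pattern, 3 to CCAAT and 1 to TGACG, and the HLA-C promoter held 4 to CCAAT and 1 to TGACG with none to the NF-kB pattern. The B2M promoter held 2 overlapping matches to the interferon-response core, and 1 to each of the other 3 patterns. That core was also matched at 2 places in TAP1 and TAPBP and at 1 place in HLA-F and TAP2. Among 35116 promoters of the same length, 3.02% held the interferon-response core, 5.07% the NF-kB pattern, 32% CCAAT and 21.2% TGACG. These matches are letters only and were not tied to binding in these cells.

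The deposited values are FPKM, fragment numbers scaled by the length of the gene model and the size of the library, which allow levels of different genes to be compared per length. From the smallest steps between low values, the libraries hold about 12680000 to 25180000 counted fragments, and 63.3% to 73.2% of low values came out within 0.05 of a whole number of fragments, so these depths are approximate. Levels in the MHC are low as a block. Of 148 coding genes between the start of HLA-F and the end of TAPBP, 48 (32.4%) were listed at 0 in all 12 libraries, against 2462 of 19669 (12.5%) of all other coding genes, and 23 (15.5%) reached a mean of 1 FPKM, against 51.9%. The rest of chromosome 6 was like the genome, with 13.8% at 0 and 50.3% at 1 FPKM or more. Genes of this region that every cell uses were among those at 0, as named after their values were seen: TUBB, the main beta-tubulin, CLIC1 and MRPS18B were listed at 0 in every library, and the splicing protein gene LSM2 reached at most 0.0333 FPKM. Elsewhere in the region RPS18, a ribosomal protein gene, was listed at 36.2 to 108 FPKM and BRD2 at 2.28 to 3.74. A 0 or a low value of a chromosome 6 member is therefore given only as listed, and is not evidence that its RNA was absent.

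**Figure D1:**
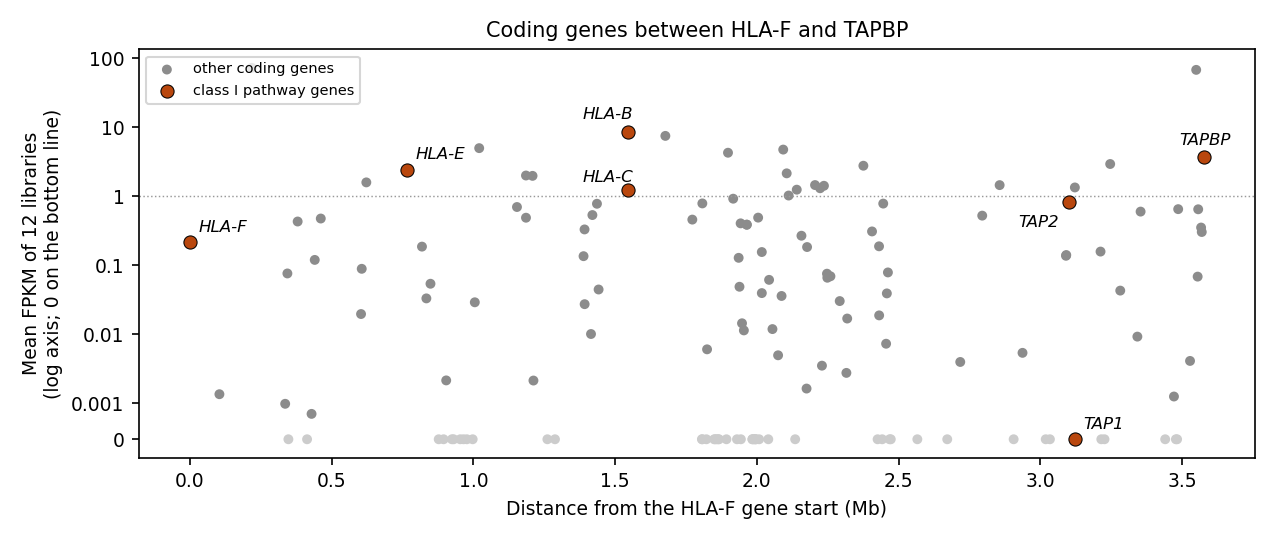
Mean FPKM over 12 libraries (log axis, with genes listed at 0 on the bottom line) of the 148 coding genes from HLA-F to TAPBP, by distance from the HLA-F start in megabases. The chromosome 6 members are in colour. Genes at 0 (light points, 48 in all, TAP1 among them) occur along the whole stretch, between genes listed above 1 FPKM (dotted line).

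How fragments that fit several places were treated, and whether alternate MHC haplotypes were part of the alignment reference, is not given in the sources used here, and their part in these levels was not tested. As a measure of sequence shared within the reference annotation (GENCODE 29), 2.72% of the 50-base words in HLA-B transcripts occur on the same strand in a transcript of another gene, 5.38% for HLA-C, 4.34% for HLA-E, 0.977% for HLA-F, 0.88% for TAP1, 31.3% for TAP2 and 4.17% for TAPBP. On either strand the shares are 17.8% for HLA-B, 5.7% for HLA-C, 4.87% for HLA-E, 21.6% for HLA-F, 9.78% for TAP1, 31.3% for TAP2 and 4.73% for TAPBP. B2M and NLRC5, outside the region, share 0% on either strand. TUBB shares 14.2% and CLIC1 2.91% on the same strand, and both were listed at 0. Copies on alternate haplotypes are not in that annotation.

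HLA-B was the member that separated all 4 lines. It was listed at 0.0938, 0.0748 and 0.115 FPKM in the 3 BxPC-3 libraries, at 0.880, 0.823 and 0.886 in BxPC-3-GR, while CFPAC-1 had 30.5, 21.9 and 22.7 and CFPAC-1-GR had 7.97, 8.87 and 8.32. No library of any line overlapped another line, and the order was CFPAC-1, CFPAC-1-GR, BxPC-3-GR, BxPC-3. The line means were 25 ± 4.74 (SD, n = 3), 8.39 ± 0.455, 0.863 ± 0.0352 and 0.0944 ± 0.0199 FPKM, of which the lowest rests on about 15.5 fragments summed over its 3 libraries. The listed mean in CFPAC-1 was 265-fold that in BxPC-3. HLA-B had the highest mean of the chromosome 6 members over the 12 libraries, 8.59 FPKM.

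HLA-C, the other classical heavy chain, was listed at 0.951, 0.597 and 0.357 FPKM in BxPC-3 and at 1.04, 0.966 and 0.323 in BxPC-3-GR, so these lines overlapped. In CFPAC-1 it was at 2.18, 2.43 and 2.58, and in CFPAC-1-GR at 0.941, 1.38 and 1.04. All 3 CFPAC-1 libraries lay above the 9 others, while CFPAC-1-GR overlapped BxPC-3-GR. HLA-E, which shows leader peptides of other class I chains, was at 5.59, 5.63 and 5.81 FPKM in CFPAC-1 and 3.25, 4.62 and 3.95 in CFPAC-1-GR. It was listed at 0, 0 and 0.0444 in BxPC-3 and at 0.0401, 0.0351 and 0 in BxPC-3-GR, so the 6 libraries of the BxPC-3 background were all below the 6 of the CFPAC-1 background. HLA-F, a non-classical heavy chain, was split by the same backgrounds at a lower level, with 0.525, 0.349 and 0.461 in CFPAC-1 and 0.239, 0.501 and 0.470 in CFPAC-1-GR. All 3 BxPC-3 libraries list it at 0, and BxPC-3-GR lists 0, 0.0161 and 0.00466.

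B2M, the light chain shared by all class I molecules, separated no lines other than CFPAC-1 and CFPAC-1-GR, whose lowest and highest libraries stood at 20.3 and 20.1 FPKM. It was at 29.5, 18.2 and 18 FPKM in BxPC-3, 28.1, 16.4 and 8.36 in BxPC-3-GR, while CFPAC-1 had 26.0, 20.3 and 25.5 and CFPAC-1-GR had 19.5, 14.5 and 20.1. Every neighbouring pair in the order of means (23.9 ± 3.15 in CFPAC-1, 21.9 ± 6.54 in BxPC-3, 18 ± 3.06 in CFPAC-1-GR and 17.6 ± 9.90 in BxPC-3-GR) overlapped, and the spread was widest in BxPC-3-GR. Over the 12 libraries B2M had the highest mean of the 9 genes, 20.4 FPKM. In BxPC-3 the mean of B2M was thus 21.9 FPKM beside 0.0944 for HLA-B and 0.635 for HLA-C, whereas in CFPAC-1 B2M and HLA-B were at 23.9 and 25 FPKM.

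Of the transporter and loading genes, TAP1 was listed at 0 in all 12 libraries, and no comparison of it was possible. TAP2, the other transporter subunit, was at 1.09, 1.18 and 1 FPKM in BxPC-3 and 0.522, 0.548 and 0.440 in BxPC-3-GR, without overlap. In CFPAC-1 it was at 0.676, 0.997 and 1.05, and in CFPAC-1-GR at 0.661, 0.767 and 0.839, which overlapped each other and, for CFPAC-1, also BxPC-3. TAPBP was at 2.32, 2.02 and 1.98 in BxPC-3, 3.20, 3.21 and 3.53 in BxPC-3-GR, while CFPAC-1 had 6.11, 7.42 and 6.16 and CFPAC-1-GR had 2.10, 3.54 and 2.75. CFPAC-1 stood above the 9 other libraries, and CFPAC-1-GR overlapped both BxPC-3 lines.

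NLRC5 was low in every line. It was at 0.306, 0.324 and 0.265 FPKM in BxPC-3, 0.363, 0.335 and 0.302 in BxPC-3-GR, while CFPAC-1 had 0.750, 0.740 and 0.669 and CFPAC-1-GR had 0.700, 0.611 and 0.692. The CFPAC-1 background was above the BxPC-3 background in every library, and within each background the resistant and parental libraries overlapped.

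**Figure D2:**
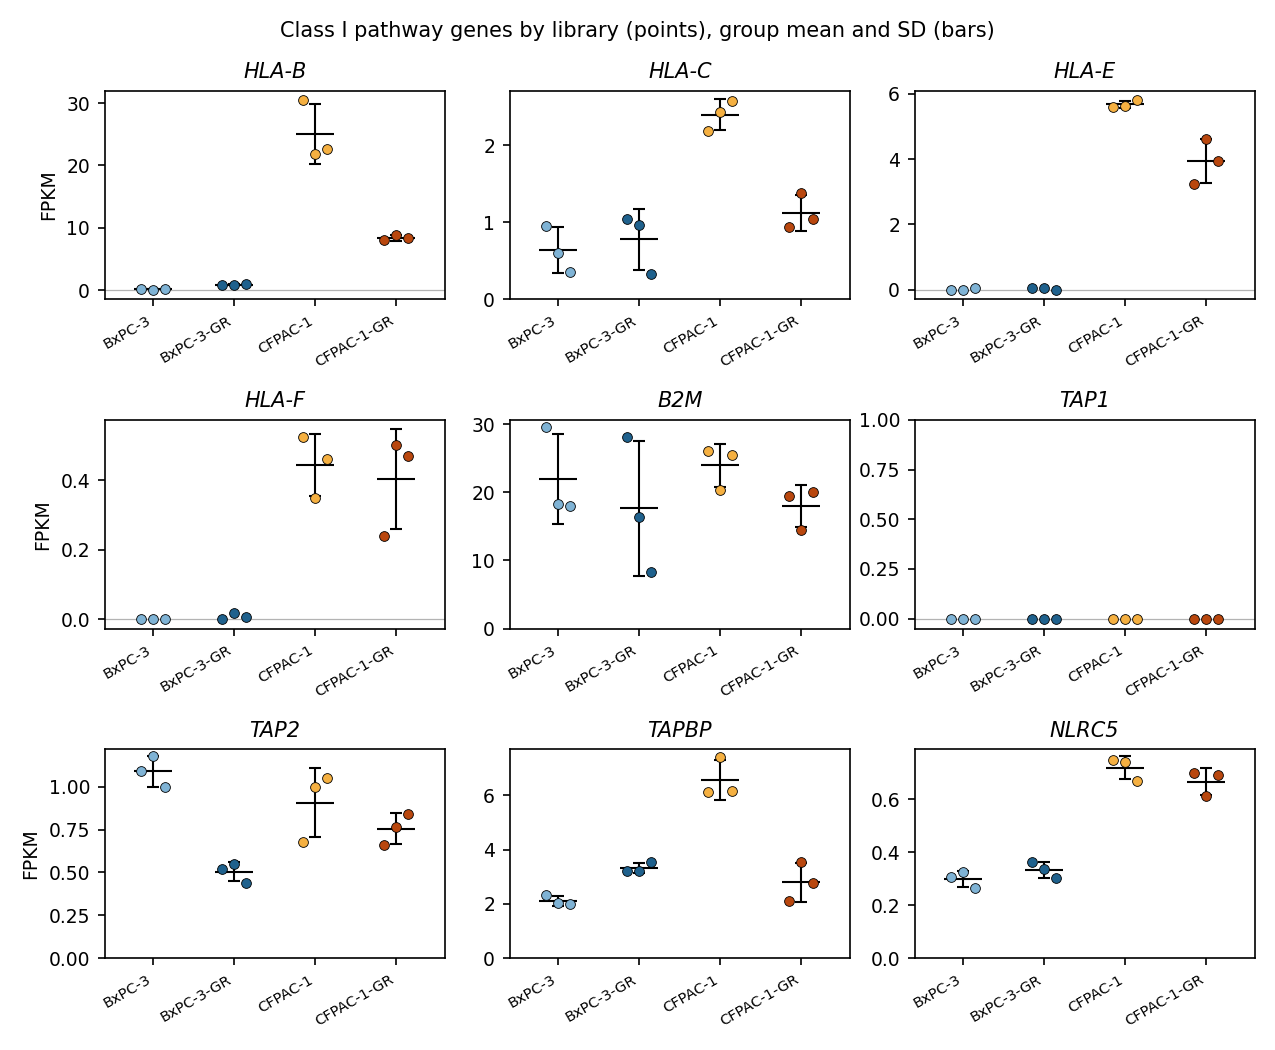
FPKM of each gene (1 panel per gene, separate vertical scales) in the 3 libraries of each line as points, with the group mean and SD as bars where no library of the group is listed at 0. HLA-B, HLA-E, HLA-F and NLRC5 are higher in every library of the CFPAC-1 background than in any of the BxPC-3 background, B2M overlaps between lines except CFPAC-1 and CFPAC-1-GR, and TAP1 is on 0 throughout.

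The first question was what acquired GEM resistance changed in BxPC-3. Fits were made with limma on log2(FPKM + 1) for every gene whose mean over the compared libraries reached 1 FPKM, and a gene is called significantly differentially expressed (SDE) at a Benjamini-Hochberg adjusted p under 0.05 with an absolute log2 fold change (log2FC) over 1. On that scale, changes of genes near or below 1 FPKM are understated. Only TAPBP and B2M of the 9 members passed the filter, and neither was SDE, where 4.14% of 11710 genes were SDE up and 3.62% SDE down. TAPBP rose by less than the fold threshold (log2FC 0.47, SE 0.0648, limma adjusted p = 0.0012), and its listed mean was 1.57-fold higher in BxPC-3-GR. B2M had a log2FC of -0.41 (SE 0.424, limma adjusted p = 0.44), and without the lowest library, BxPC-3-GR replicate 3, the value was 0.01.

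Since 7 of the 9 members were below the minimum mean in this comparison, a fit with a pseudocount of 0.1 and a minimum mean of 0.1 FPKM was added after the data had been seen. It tested 6 members, among which HLA-B alone was SDE, and up, with 7.5% of 19698 genes SDE up and 6.03% SDE down. HLA-B, at a mean of 0.0944 FPKM in BxPC-3, passed this filter only through BxPC-3-GR. It could thus be called in 1 direction only, and its fitted value depends on the pseudocount. HLA-B rose with a log2FC of 2.31 (SE 0.0972, limma adjusted p = 9.1e-05), and 9.15-fold as a ratio of listed means, from about 15.5 to about 189 fragments summed over 3 libraries. Its level in BxPC-3-GR, 0.863 FPKM, remained below every CFPAC-1 library. TAP2 moved the other way (log2FC -0.98, SE 0.105, limma adjusted p = 0.0015), just short of the fold threshold, and its listed mean was 2.16-fold higher in the parental line. HLA-C (log2FC 0.21, adjusted p = 0.77) and NLRC5 (0.12, adjusted p = 0.36) did not pass limma's test. Among the coding neighbours in the region that belong to no list used here, 3 of 31 tested in this fit were SDE up and 0 down, with a median log2FC of 0.22.

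In CFPAC-1-GR, HLA-B and TAPBP were lower than in CFPAC-1 as listed. Of 5 members tested, 0 were SDE up and 2, HLA-B and TAPBP, were SDE down, where 20.5% of 12051 genes were SDE up and 11.7% SDE down. The median log2FC was 0.13 over all genes tested, and scaling by median-of-ratios moved it to 0.0008 and the SDE counts from 2473 up and 1407 down to 2058 up and 1850 down, with the members' directions kept. HLA-B fell by 1.46 on the log2 scale (SE 0.13, limma adjusted p = 4.9e-05) and its parental mean was 2.98-fold the resistant one. TAPBP fell by 1.01 (SE 0.148, limma adjusted p = 6.1e-04), at the edge of the fold threshold, which it no longer passed without CFPAC-1 replicate 2 or without CFPAC-1-GR replicate 1, or with upper-quartile scaling. HLA-C (log2FC -0.68, SE 0.097, limma adjusted p = 5.0e-04) and HLA-E (log2FC -0.44, SE 0.107, limma adjusted p = 0.0071) fell by less. B2M had a log2FC of -0.40 (limma adjusted p = 0.044), which lost the threshold in 4 of the 6 fits that left out 1 library, where adjusted p ran from 0.023 to 0.12.

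The added fit tested 8 members here and called HLA-B, TAPBP and HLA-C SDE down (log2FC -1.55, -1.23 and -1.04) and none SDE up, with 28.3% of 21003 genes SDE up and 11.3% SDE down. TAP2 (log2FC -0.22, limma adjusted p = 0.34), HLA-F (-0.15, adjusted p = 0.65) and NLRC5 (-0.09, adjusted p = 0.43) did not pass. The neighbours in the region had a median log2FC of -0.48 over the 20 tested in the first fit, with 1 SDE down and 0 up, and 4 of the 20 were above 0. With GC content and length corrected for, as described next, their median was 0.25, with 14 of 20 above 0 and 0 SDE in either direction. In that corrected fit 7.07% of 12030 genes were SDE up and 2.35% SDE down.

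GC content moved with this comparison. Spearman's rho was taken between the GC content of a gene's longest transcript and its log2FC. Across 12030 genes, which are not independent replicates, rho was -0.777 in CFPAC-1-GR against CFPAC-1. It was 0.0388 over 11685 genes in the BxPC-3 comparison. The 740 genes within 1 percentage point of the GC content of HLA-B (59%) had a median log2FC of -0.65, and 6.49% of them were lower than HLA-B. For TAPBP (57.6%) the median was -0.62 with 20.6% lower, for HLA-E (54.8%) -0.43 with 49.3% lower, and for HLA-C (62.7%) -0.89 with 66.3% lower. B2M, at 40.6% GC, stood among genes with a median of 1.01, of which 2.24% were lower. After a correction for GC content and length, B2M was SDE down (log2FC -1.34, limma adjusted p = 3.1e-04), HLA-B fell by 0.55 (limma adjusted p = 0.0068), TAPBP had -0.31 (adjusted p = 0.091), HLA-E 0.18 (adjusted p = 0.12), and HLA-C changed sign to 0.43 (limma adjusted p = 0.0037). Whether the trend arose in the libraries or in the cells was not tested.

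**Figure D3:**
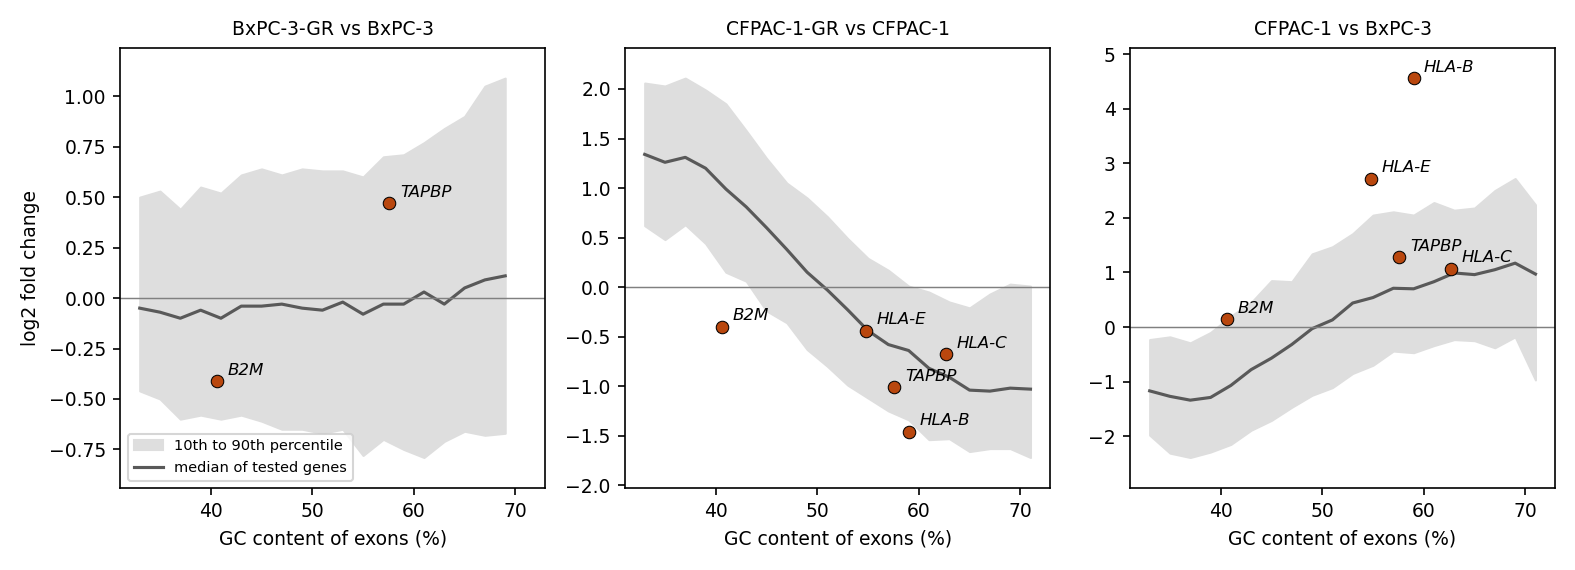
The log2 fold change against GC content of exons (%) in 3 comparisons, as the median (line) and the 10th to 90th percentile (band) of tested genes in bins of GC content with at least 20 genes, and the members tested as points. GC content is that of each gene's longest transcript. HLA-E and HLA-C lie close to the line in CFPAC-1-GR against CFPAC-1, HLA-B and B2M lie below it, and in CFPAC-1 against BxPC-3 HLA-B and HLA-E lie far above it.

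The parental lines were compared to show what each started from. In CFPAC-1 against BxPC-3, 4 of 5 members tested were SDE up and 0 down, where 19.8% of 11842 genes were SDE up and 24.7% SDE down. HLA-B, HLA-E and HLA-C passed the filter only through their level in CFPAC-1, so these could be called in 1 direction only and the count does not support a direction of the group. The fitted log2FC of HLA-E, listed at 0 in 2 of 3 BxPC-3 libraries, depends on the pseudocount. HLA-B was higher by a log2FC of 4.56 (SE 0.125, limma adjusted p = 2.8e-07), HLA-E by 2.72 (SE 0.0505, adjusted p = 1.1e-07), TAPBP by 1.28 (SE 0.0875, adjusted p = 1.2e-05) and HLA-C by 1.07 (SE 0.135, adjusted p = 2.9e-04), which was at 0.94 without BxPC-3 replicate 3. B2M had a log2FC of 0.15 (limma adjusted p = 0.51), and 0.38 (adjusted p = 0.03) without BxPC-3 replicate 1. In the added fit 6 of 8 members were SDE up and 0 down, where 22.6% of 20411 genes were SDE up and 28.8% SDE down, the additional ones being HLA-F, which passed only through CFPAC-1 and whose fitted value has no meaning as a fold against a line listed at 0, and NLRC5 (1.04, adjusted p = 1.8e-04), while TAP2 had -0.26 (adjusted p = 0.23). Of the region's neighbours, 25 of 44 were SDE up and 1 down in that fit (median log2FC 1.36). Spearman's rho with GC content was 0.628. NLRC5 is at 58% GC, and the added fit, which alone tested it, was not run with the GC and length correction. With that correction in the first fit, HLA-B (3.58), HLA-E (1.99) and B2M (1.21) were SDE up. TAPBP had 0.54 (limma adjusted p = 0.0011), and HLA-C was at -0.10. The neighbours then had a median of 0.05 over 15 tested, with 4 SDE up, 1 down and 8 above 0. Before the correction they had a median of 0.77, with 6 up and 0 down. Of 11821 genes in the corrected fit, 12.4% were SDE up and 14.6% SDE down.

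Between the resistant lines the gap was smaller for HLA-B. In CFPAC-1-GR against BxPC-3-GR, 2 of 4 members tested were SDE up and 0 down, where 10.3% of 12330 genes were SDE up and 6.8% SDE down. Both passed the filter only through CFPAC-1-GR and could be called in 1 direction only. HLA-B was higher by a log2FC of 2.33 (SE 0.063, limma adjusted p = 5.3e-07) and HLA-E by 2.26 (SE 0.106, adjusted p = 4.8e-06). TAPBP (-0.20, limma adjusted p = 0.24, and -0.34 with adjusted p = 0.032 without CFPAC-1-GR replicate 2) and B2M (0.17, adjusted p = 0.73) did not pass. The added fit called 3 of 8 SDE up, with HLA-F as the additional one, again through CFPAC-1-GR only, and 0 down, where 19.2% of 21543 genes were SDE up and 9.29% SDE down. NLRC5 had 0.83 (limma adjusted p = 0.0011) and TAP2 0.50 (adjusted p = 0.018), both within the fold threshold. Here rho with GC content was -0.0189, and the correction left HLA-B at 2.30 and HLA-E at 2.15.

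Whether resistance changed these genes differently in the 2 backgrounds was tested as the difference of responses, the CFPAC-1 log2FC minus the BxPC-3 log2FC, over all 12 libraries. Of 5 members tested, 2 were SDE down and 0 up, where 23.6% of 12210 genes were SDE up and 14.4% SDE down. The median over all genes was 0.22, which median-of-ratios scaling moved to -0.02, with SDE counts going from 2885 up and 1758 down to 2162 up and 2452 down. HLA-B had a difference of -2.22 (SE 0.145, limma adjusted p = 1.5e-07), and TAPBP one of -1.48 (SE 0.173, limma adjusted p = 1.4e-05), each being higher in the resistant BxPC-3 line and lower in the resistant CFPAC-1 line than in its parent, without overlap of libraries. HLA-C (-0.79, limma adjusted p = 0.012) and HLA-E (-0.46, adjusted p = 0.0048) passed the p threshold alone, and B2M (0.01, adjusted p = 0.98) did not. HLA-B, HLA-C and HLA-E passed the filter only through the CFPAC-1 background. With HLA-E at or near 0 in the BxPC-3 background, its difference is close to its change in CFPAC-1-GR alone (-0.44). The added fit tested 8 members, with 28.9% of 21194 genes SDE up and 14.2% SDE down, and called HLA-B (-3.86) and TAPBP (-1.86) SDE down and none up. TAP2 had 0.76 there (limma adjusted p = 0.012). With the GC and length correction HLA-B remained SDE (-1.28, limma adjusted p = 1.3e-05), TAPBP was at -0.71 (adjusted p = 0.0024), and HLA-C and HLA-E changed sign to 0.39 and 0.15. That corrected fit called 13.4% of 12184 genes SDE up and 6.16% SDE down.

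**Figure D4:**
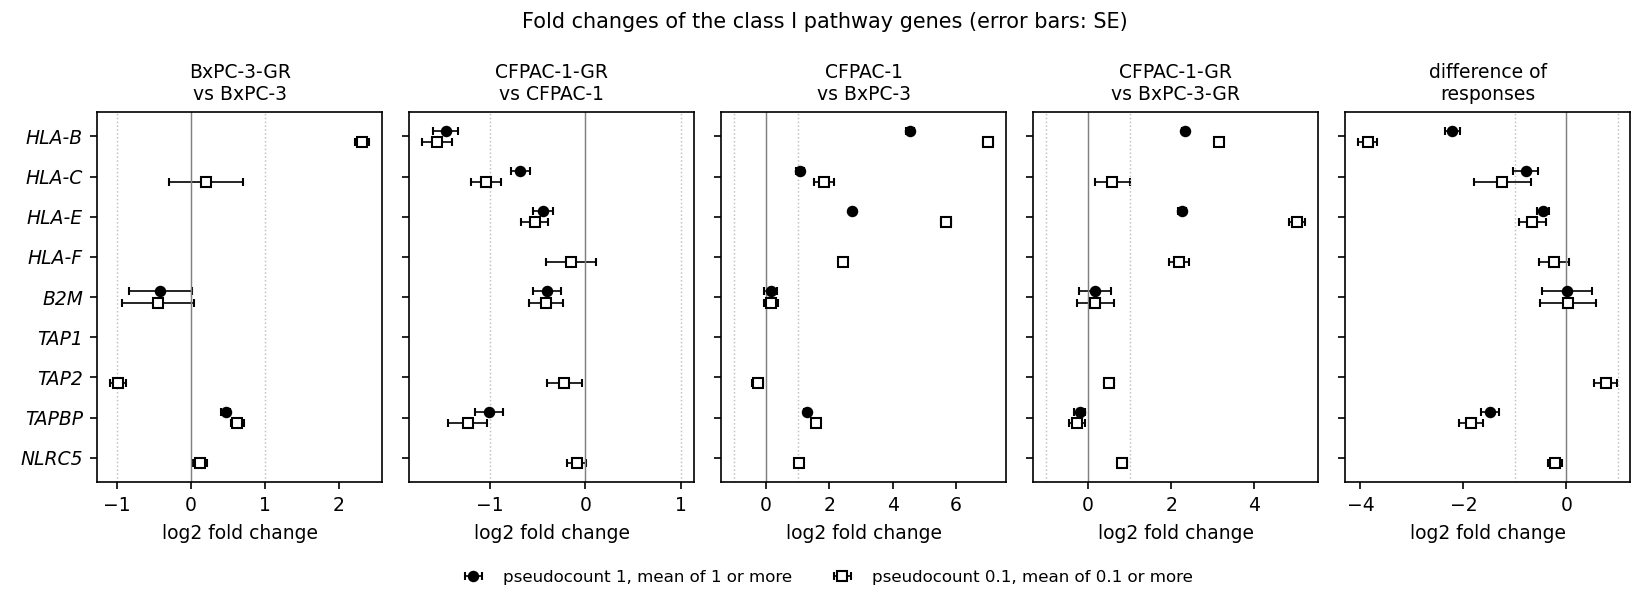
Log2 fold change (horizontal, with SE; scales differ between panels) of each member in the 4 comparisons and in the difference of responses, with a pseudocount of 1 and a minimum mean of 1 FPKM (filled) or a pseudocount of 0.1 and a minimum mean of 0.1 FPKM (open). Dotted lines mark the fold threshold of 1. HLA-B is at 2.31 in BxPC-3-GR (open) and at -1.46 in CFPAC-1-GR (filled), and TAP1 has no value.

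Genes that work with the members were taken from lists, whose counts are given beside the shares of all genes above. Counts after the GC and length correction are to be read beside the lower shares given for the corrected fits. A list gene below 1 FPKM in 1 of the lines compared passed the filter only through the other, and could be called in 1 direction only. Of the genes named, ERAP2, PSMB9, JAK2, CXCL10, RAET1E, RAET1G, FCGRT, AZGP1, CD74 and HLA-DRB1 were in that position in CFPAC-1 against BxPC-3. So were ERAP2 and AZGP1 in CFPAC-1-GR against CFPAC-1, and RAET1E in BxPC-3-GR against BxPC-3. Among peptide loading and trimming genes, 0 of 8 were SDE in BxPC-3-GR (3 had an unadjusted limma p under 0.05), and 2 of 8 were SDE up in CFPAC-1-GR, ERAP2, an aminopeptidase that trims peptides in the endoplasmic reticulum (log2FC 1.25), and the chaperone gene CANX (1.11), which had 0.24 and 0.23 after the GC and length correction. ERAP2 was lower in CFPAC-1 than in BxPC-3 (log2FC -4.59, limma adjusted p = 4.8e-08), at 0.237 ± 0.0561 against 28.8 ± 0.909 FPKM (SD, n = 3), opposite in direction to HLA-B. TAPBPL, a tapasin relative, was also SDE down in that comparison (-1.32), as 2 of 8 in the list, with 0 up.

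Immunoproteasome subunits change which peptides are cut, and the list that holds them also holds proteasome activator genes, PSME1 among them. Of 5 list genes tested, 3 were SDE up in CFPAC-1 against BxPC-3 and 0 down (median log2FC 1.54, against -0.10 over all genes): PSMB10 (2.27), PSMB9 (1.63) and PSME1 (1.54). After the GC and length correction 2 were SDE up (median 0.85), with PSME1 at 0.85 and no longer called. In BxPC-3-GR 0 of 4 were SDE by limma (3 at an unadjusted p under 0.05), and in CFPAC-1-GR 1 of 5, PSMB10, was SDE down (-1.07), with 0 of 5 SDE after correction for GC and length. PSMB8, which lies beside TAP1 in the MHC, was listed at 0 in every library. The constitutive catalytic subunits that immunoproteasome subunits replace had 0 of 3 SDE in BxPC-3-GR by limma (all 3 at an unadjusted p under 0.05). PSMB5 (-1.28) and PSMB6 (-1.07) were SDE down in CFPAC-1-GR, neither being SDE after correction. PSMB5 was SDE up in CFPAC-1 against BxPC-3 (1.42), and had 0.84 after correction.

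Regulators of class I promoters include factors whose site patterns were searched for in the sequences above, while RFX sites were not searched for. These regulators showed 0 of 18 SDE in BxPC-3-GR by limma (8 at an unadjusted p under 0.05). In CFPAC-1-GR 4 of 16 were SDE up and 2 down, among them ATF1 (1.14), a CREB/ATF factor, RFXANK (-1.31), a subunit of the RFX complex, and RELB (-1.13). After correction ATF1 was at 0.19, RFXANK at -0.26 and RELB at 0.00, and 1 up and 0 down remained SDE. The 1 that remained was RFX5, another subunit of the RFX complex, at 1.10 before correction and 1.13 after. In CFPAC-1 against BxPC-3, 3 of 18 were SDE up, led by IRF1 (1.60) and RFXANK (1.54), and 2 down, NFKB1 (-1.46) and ATF1 (-1.25), against 1 up and 2 down in the list after correction, when ATF1 was at -0.32. IRF1 was at 11.6 ± 0.486 FPKM in CFPAC-1 and 3.14 ± 0.269 in BxPC-3.

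Interferon receptor and kinase genes included JAK2, SDE up in BxPC-3-GR (1.18) as 1 of 7, and IFNAR1 (1.92) and IFNGR1 (1.28), SDE up in CFPAC-1-GR as 2 of 6, of which IFNAR1 alone was SDE after correction (1.11, with IFNGR1 at 0.47). In CFPAC-1 against BxPC-3, 3 of 7 were SDE down, led by IFNGR1 (-2.49) and JAK2 (-2.41), against 2 after correction. Of the interferon-induced genes, which include many antiviral genes, 1 of 18 was SDE up and 6 SDE down in BxPC-3-GR (median log2FC -0.76, against -0.05 over all genes). There GBP2 rose (1.65) and IFI6 (-2.08) and IFIT3 (-1.99) fell. In CFPAC-1-GR 8 of 16 were SDE up and 1 down (median 0.93, against 0.13), led by IFIT3 (2.13) and DDX58 (2.09) with ISG15 down (-1.28), and 3 up and 0 down remained SDE after the GC and length correction. The difference of responses was SDE up for 12 of 18 and SDE down for 1, with IFIT3 at 4.12, IFIT1 at 3.31 and GBP2 at -1.62. After the GC and length correction 11 were SDE up and 1 down in that difference. HLA-B and TAPBP, at -2.22 and -1.48, were on the side of GBP2. In CFPAC-1 against BxPC-3, 5 of 18 were SDE up, led by GBP2 (2.72) and USP18 (1.77), and 9 down, led by IFI44 (-3.18) and CXCL10 (-2.53), against 3 up and 7 down after correction.

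Class II genes, which serve presentation to helper T cells, were read for contrast. CD74, the invariant chain, which lies outside the MHC, ranged from 161 to 182 FPKM in the CFPAC-1 libraries, from 55.8 to 72.5 in CFPAC-1-GR, from 0.143 to 0.251 in BxPC-3-GR and from 0 to 0.124 in BxPC-3. It had the same order of lines as HLA-B, with no overlap between them, and was SDE up in CFPAC-1 against BxPC-3 (7.31) and SDE down in CFPAC-1-GR (-1.43, and -0.54 after GC and length correction). Of the 9 class II genes 0 were tested in BxPC-3-GR, 1 of 3 was SDE down in CFPAC-1-GR, and both of the 2 tested were SDE up in CFPAC-1 against BxPC-3, with HLA-DRB1 at 2.25. Both passed the filter only through CFPAC-1 and could be called in 1 direction only. HLA-DRB1 was listed at 0 in every BxPC-3 library, so its value is set by the pseudocount and is not a fold. The value of CD74 in that comparison depends on the pseudocount too.

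The list of class I-like molecules and stress ligands holds NK cell ligands (MICA and the ULBP and RAET1 genes) beside genes of other functions, such as FCGRT, the neonatal Fc receptor. It had RAET1E (-1.36) and ULBP3 (-1.25) SDE down in BxPC-3-GR among 8 tested, and FCGRT (-1.22) and AZGP1 (-1.15) SDE down in CFPAC-1-GR among 9, with 0 up in both, neither of the latter being SDE after correction, when ULBP3 was SDE up instead (1.68). In CFPAC-1 against BxPC-3, 2 of 10 were SDE up, FCGRT (2.48) and AZGP1 (2.05), and 4 down, led by RAET1E (-1.80) and RAET1G (-1.61), against 4 up and 4 down after correction.

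Across the 4 line means of log2(FPKM + 1), each gene centred on its own mean, the genes whose pattern was closest to HLA-B were PLAC8, F2R and PLAU, with a largest gap of 0.16, 0.21 and 0.31 against a range of 4.56 for HLA-B. In the order CFPAC-1, CFPAC-1-GR, BxPC-3-GR and BxPC-3, PLAC8 had means of 22.3, 9.14, 0.915 and 0.142 FPKM. F2R, the thrombin receptor gene, had 62.1, 22.8, 2.94 and 1.92, and PLAU, which encodes urokinase, 614, 202, 53.5 and 34.6. The likeness is over 4 lines only. No search was made for TAP1, with a range of 0, or NLRC5, with 0.41.

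Markers of other cells were checked because leukocytes carry much class I RNA. The 6 ductal epithelial markers summed to between 838 and 2910 FPKM, and PTPRC, which marks all leukocytes, was listed at 0 in all 12 libraries. Summed T and NK cell markers reached at most 0.288 FPKM, B cell markers 0.329, endothelial markers 0.911 and fibroblast markers 3.98. The 4 myeloid markers summed to between 9.36 and 11.6 FPKM in CFPAC-1, between 4.53 and 6.24 in its resistant line, and between 0.481 and 0.816 in the BxPC-3 background, so the sum moved with HLA-B between backgrounds and in CFPAC-1-GR. It came mostly from LYZ and CD14. The lower sum in CFPAC-1-GR came from LYZ (0.631 to 1.75 FPKM, against 6.05 to 8.26 in CFPAC-1), since CD14 was at 2.67 to 4.58 against 3.26 to 3.45, while CSF1R was at most 0.0688 and ITGAM at most 0.1 FPKM, and their part in the levels was not tested. In bulk RNA, fewer cells with a transcript and less of it per cell cannot be told apart.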

How the data were processed

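RNA libraries (12) of 4 pancreatic cancer lines (3 per line) were read from 1 table of 58302 genes. The deposited values are FPKM computed by the authors per gene and library. According to the methods of the study, reads were aligned to GRCh38 with Ensembl 91 gene models, and the submitters' processing notes name hg19 and GRCh38, Trimmomatic 0.27, FastQC 0.10.1 and TopHat2 2.0.8, without role or order. Handling of multiply placed fragments and of strand is not given in the sources used here. Since the table holds no counts, the count model of the study could not be used.

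Gene positions, exon length and GC content came from GENCODE 29 (58039 genes matched). Length covers all exons of a gene, and GC content is that of its longest transcript. log2(FPKM + 1) was fitted with limma 3.58.1 in R 4.3.3 for genes whose mean over the libraries fitted reached 1 FPKM, with Benjamini-Hochberg adjustment over all genes tested. SDE means adjusted p under 0.05 and an absolute log2FC over 1. No permutation test is given, since p = 0.10 is the smallest exact value (2-sided) that groups of 3 allow. The self-test on simulated data recovered 200 of 200 changed genes with 0 false calls in each of the 5 comparisons. The changed genes lay well above the filter, their changes were well over the fold threshold, and no GC trend was simulated. It therefore does not measure how genes near 1 FPKM, or changes near the threshold, are called in these data. Alternatives were the pseudocount, the filter, scaling, a GC and length correction (spline with 5 degrees of freedom), a replicate block, all libraries in 1 fit, and leaving out each library.

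The 9 genes were taken by name. From each pathway list and comparison, the up to 2 SDE genes with the largest log2FC in each direction could be named, PSME1, PSMB8, RFX5, the marker genes and the region's housekeeping genes being named beside them. The most similar genes are the 3 with the smallest gap in line means. Some list genes that this rule names, and the list on surface turnover, are not reported here. Genes and lists were chosen with earlier results of these data known. Sequences are from RefSeq (GRCh38.p14).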

Additional observations from a re-analysis of the deposited data

Results flagged for a closer look

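The response to resistance differed between the BxPC-3 and CFPAC-1 backgrounds, by limma's test of the difference itself (CFPAC-1 log2FC minus BxPC-3 log2FC), for HLA-B (-2.22, adjusted p = 1.5e-07), TAPBP (-1.48, adjusted p = 1.4e-05), HLA-C (-0.79, adjusted p = 0.012) and HLA-E (-0.46, adjusted p = 0.0048). The median difference over all 12210 genes tested was 0.22, and Spearman's rho of the difference with GC content was -0.696 over 12184 genes. Genes within 1 percentage point of GC content had medians of -0.62 for HLA-B, -0.59 for TAPBP, -0.95 for HLA-C and -0.38 for HLA-E. After the GC and length correction HLA-B was at -1.28 and TAPBP at -0.71. HLA-C and HLA-E then changed sign, to 0.39 (limma adjusted p = 0.13) and 0.15 (adjusted p = 0.22). HLA-B, HLA-C and HLA-E passed the filter only through the CFPAC-1 background. HLA-B and TAPBP moved up in BxPC-3-GR and down in CFPAC-1-GR in every library, and HLA-E was at or near 0 in all 6 libraries of the BxPC-3 background, where a fall could not be seen.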

How the results depend on the processing

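Of the values computed for the members under other settings, 363 kept their direction and side of the threshold, 15 lost the threshold, 4 gained it and 21 changed sign, and 182 counts stayed within 1.5 times while 8 did not. Members SDE up in BxPC-3-GR went from 0 to 1 (HLA-B) with a pseudocount of 0.1 and a minimum mean of 0.1 FPKM, a setting added after seeing the data. HLA-B passed that filter only through BxPC-3-GR. Members SDE down in CFPAC-1-GR went from 2 to 1 with upper-quartile scaling (HLA-B), with the GC content and length correction (B2M in place of HLA-B and TAPBP), and with that correction plus the replicate block (B2M), and ran from 1 to 2 when 1 library was left out. SDE down in the difference of responses went from 2 to 1 (HLA-B) with the correction, with or without the block. Signs that changed under the correction, with or without the block, were HLA-C 0.43 and HLA-E 0.18 in CFPAC-1-GR, HLA-C -0.10 in CFPAC-1 against BxPC-3, and HLA-C 0.39, HLA-E 0.15 and B2M -0.89 in the difference of responses, where B2M was also -0.29 with median-of-ratios and -0.02 with upper-quartile scaling. With 1 library left out, B2M ran from -0.81 to 0.01 in BxPC-3-GR, from -0.26 to 0.56 in CFPAC-1-GR against BxPC-3-GR and from -0.41 to 0.41 in the difference of responses. The cause was not tested. SDE counts over all genes went from 485 up and 424 down to 777 and 652 in BxPC-3-GR with a pseudocount of 0.1 alone. With the correction they went from 2473 and 1407 to 851 and 283 in CFPAC-1-GR, from 2350 and 2924 to 1464 and 1731 in CFPAC-1 against BxPC-3, and from 2885 and 1758 to 1635 and 751 in the difference of responses. Same-numbered libraries correlated at -0.143 to 0.096, and not every library correlated best with its own number, so numbers do not pair them. The replicate block alone changed no call among the members (HLA-B -1.46, adjusted p = 5.2e-04, in CFPAC-1-GR), and SDE counts there were 2472 up and 1411 down. HLA-B in BxPC-3, and HLA-E and HLA-F in both BxPC-3 lines, rest on few fragments, and a gene listed at 0 in a line allows no fold against it.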
